A study of Homo sapiens with 102 samples.

Results

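Combi-Seq libraries of K562 cells that received 1 drug from one injection source and DMSO, the solvent, from the other were compared by the position of the drug in the pair. The libraries were chosen by their labels alone: those named X_DMSO held the drug in the first-listed position and those named DMSO_X held it in the second-listed position, where X was Imatinib, Trametinib or YM115. These were 36 of the 102 libraries of the series. Each of the 2 screens, dT and Bio, had 9 first-listed libraries (3 drugs in 3 runs) and 9 second-listed libraries, and every first-listed library had a second-listed partner of the same drug and run. K562 is an established chronic myeloid leukaemia line with erythroid features that carries the BCR-ABL fusion. Single cells were encapsulated in picolitre droplets with both sources and kept for 12 h at 37 degrees Celsius before lysis, and all libraries of both positions shared these conditions. Imatinib inhibits the BCR-ABL kinase and trametinib inhibits the MEK kinases. YM115 is the name in the labels, and the study writes YM155, which lowers survivin expression. No dose was given in the labels.

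In Combi-Seq each source delivers its compound together with its own DNA barcode fragment. One fragment carries the poly-dT end that primes reverse transcription and the other carries the PCR handle, and only the ligated pair gives a working primer. A given well therefore had 1 drug and 1 fragment, and droplets of the same 2 compounds in swapped positions held the same drug but other fragments. The fragment types were exchanged between the dT and Bio screens. One source was a set of Braille valves and the other an autosampler, and which of them is listed first was not settled from the labels. A difference between X_DMSO and DMSO_X therefore holds the barcode pair, the injection source and the source of the solvent at once, and these cannot be told apart here. The question put to these libraries was whether the source of a drug alters the readout.

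Total counts per library served as depth. The 36 libraries lay between 82879 and 480075 counts. The in-screen libraries of their screens, of which they are part, ran from 127042 to 759756 in dT and from 17882 to 780143 in Bio. A filter asked for at least 1000 detected genes and at most 15% mitochondrial counts, and it kept 18 of 18 libraries in dT and 17 of 18 in Bio. The library left out of the tests was Bio DMSO_Trametinib run 1, with 808 detected genes and 93932 counts. Among 36 pairs of replicate libraries, 0 held identical counts. Of the 11 K562 markers, among them the fetal and embryonic globins HBG1, HBG2, HBE1 and HBZ, 10 were counted in dT and 8 in Bio, and they took 1.31% to 7.22% of dT counts and 0.912% to 4.42% of Bio counts. Of 8 markers of T cells, B cells, fibroblasts, liver and endothelium, 2 were counted in each screen, at most at 0.0297% of the counts of a dT library and 0.0373% of a Bio library. Pools of few cells and little RNA per cell both lower the counts of a library, and these cannot be told apart. The study describes its replicates as biological, with the whole procedure carried out 3 times, whereas the labels do not say that runs came from separate cultures. The p-values measure the spread between these libraries.

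The clearest difference between the positions was in depth and in the number of genes seen, and it was a dT result. In dT the first-listed libraries had 296762 counts at the lowest, 360752 at the median and 480075 at the highest. The second-listed libraries had 127042, 215114 and 270885 counts. Thus the shallowest library with the drug in first position was deeper than the deepest with it in second position, and the groups did not overlap. The means were 369223 ± 62265 and 203291 ± 46814 counts (SD, n = 9 each). On the log2 scale the difference within pairs was 0.88 (SD 0.40), with the first-listed library higher in 9 of 9 pairs. An exact two-sided permutation test that exchanged positions within pairs gave p = 0.0039, the smallest value that 9 pairs allow, and an adjusted p of 0.013 over the 10 tests of 5 measures in 2 screens. The 3 pairs of a drug shared their barcode pairs. Without any 1 run or drug the first-listed libraries stayed deeper, but 6 pairs cannot give an exact permutation p below 0.0313, and the adjusted p was 0.0781 to 0.104. With the 3 drugs as the units, exchanging signs could not give a p below 0.25. By the barcode design, the DMSO_X libraries of a screen also shared the solvent fragment of the first position. The X_DMSO libraries shared that of the second position, so the drugs are not independent units either.

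The dT screen also detected more genes with the first-listed drug. A gene was detected when it had at least 1 count. The first-listed libraries detected 3372 genes at the lowest, 4057 at the median and 4757 at the highest, against 1837, 2583 and 3194 genes in the second-listed libraries. Again all 9 values of one position lay above all 9 of the other. The difference within pairs was 1567 genes (SD 440, higher in 9 of 9 pairs, exact permutation p = 0.0039, adjusted p = 0.013). Thinning every library to 127042 counts, the total of the shallowest, left 3156 ± 342 and 2195 ± 336 detected genes (SD, n = 9 each). The difference at equal depth was 961 genes (SD 287, 9 of 9 pairs, exact permutation p = 0.0039, adjusted p = 0.013). The thinned values overlapped, from 2649 to 3628 genes with the first-listed drug and from 1756 to 2830 with the second.

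The DMSO_DMSO libraries of dT, which received solvent from both sources, had 184353 ± 12460 counts and 2857 ± 189 detected genes (SD, n = 3). The DMSO_Imatinib, DMSO_Trametinib and DMSO_YM115 libraries had 206333 ± 73045, 217888 ± 35543 and 185651 ± 36975 counts (SD, n = 3 each). The Imatinib_DMSO, Trametinib_DMSO and YM115_DMSO libraries had 303741 ± 6763, 378863 ± 43550 and 425065 ± 48133 counts. The first of these sets lay near the solvent libraries in depth and the second lay above them. Over all 48 in-screen dT libraries the median was 350752.5 counts. The median was 360752 for the first-listed libraries and 215114 for the second-listed ones, so the latter were the shallow ones by this measure. This order of the sets is a description, since the 3 solvent libraries entered no test of position. By design the DMSO_DMSO and DMSO_X libraries shared the solvent fragment listed first, and its part in this order was not tested.

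**Figure D1:**
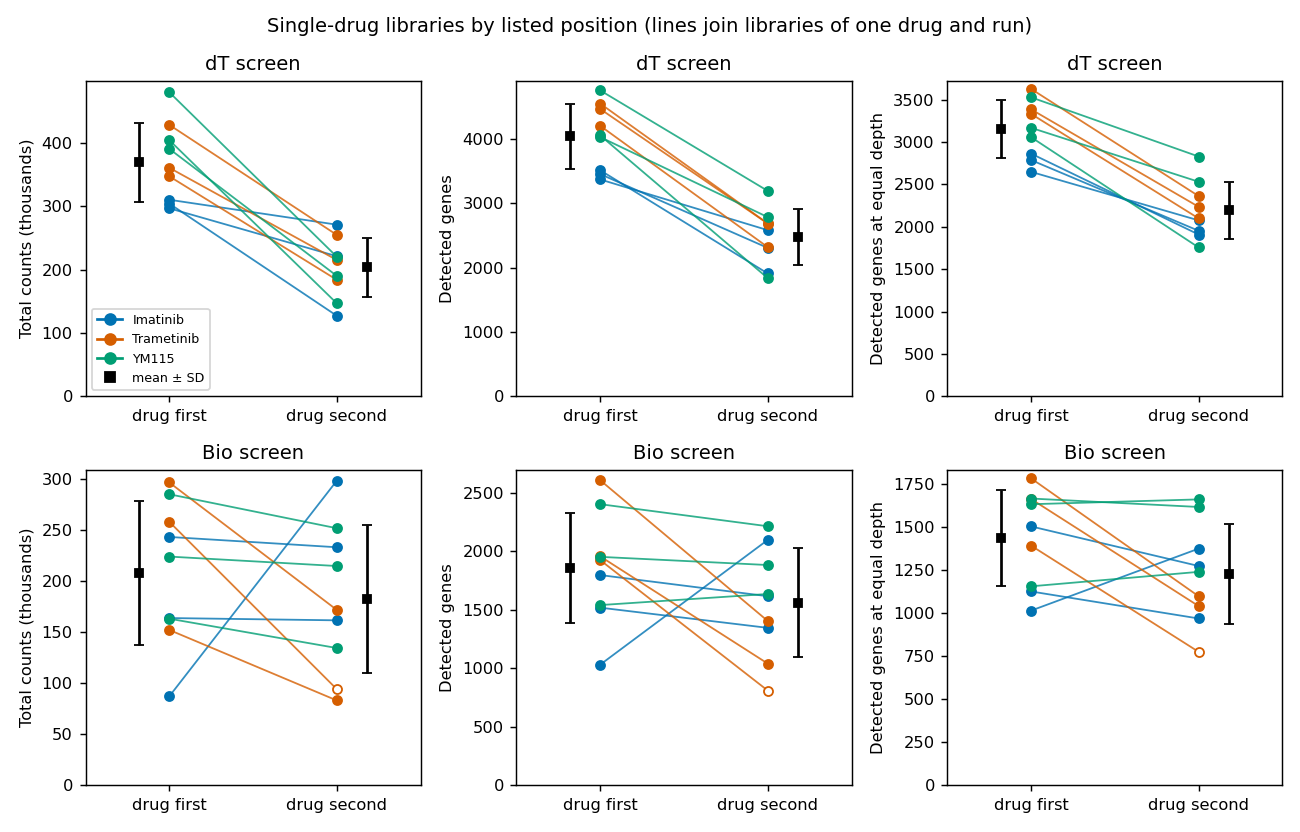
Total counts, detected genes and detected genes at equal depth of each single-drug library by drug position, dT above and Bio below, with lines joining libraries of one drug and run, black squares and bars for mean ± SD of 9 libraries, and an open point for the Bio library under 1000 detected genes. In dT the first-listed libraries (296762 to 480075 counts) sit above all second-listed ones (127042 to 270885), whereas in Bio the positions overlap.

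In Bio the positions overlapped. First-listed libraries had 86866 counts at the lowest, 224046 at the median and 296766 at the highest, and second-listed libraries had 82879, 171723 and 298484. Detected genes ran from 1030 over 1925 to 2609 and from 808 over 1616 to 2215. Both the highest and the lowest library by depth were second-listed. Over the 8 pairs that passed the filter the log2 difference in counts was 0.06 (SD 0.82, exact permutation p = 0.805), although the first-listed library was deeper in 7 of 8 pairs. The exception was imatinib in run 2, where the first-listed library had 86866 and the second-listed 298484 counts. Detected genes differed by 197 (SD 680, exact permutation p = 0.336) and, at an equal depth of 82879 counts, by 159 (SD 353, exact permutation p = 0.273).

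The difference between the screens was itself tested. The gap between positions was 0.82 log2 units larger in dT than in Bio for total counts (exact permutation of screen labels over 17 pairs, p = 0.0058, adjusted p = 0.00967 over 5 measures). For detected genes it was larger by 1371 genes (exact permutation, adjusted p = 0.00144). With the libraries of both screens thinned to 82879 counts, the gap was 901 genes (SD 265) in dT and 159 genes in Bio, and it was larger in dT by 742 genes (exact permutation, adjusted p = 0.00144). With the Bio pair of the filtered library included, the gap in counts differed by 0.66 (exact permutation p = 0.0423, adjusted p = 0.0705), which no longer passed, whereas detected genes still differed by 1268 (exact permutation, adjusted p = 0.00185). These tests took pairs as units, although the 3 pairs of a drug shared their barcode pairs and all drugs shared the solvent fragments. Over all pairs, the mean log2 gaps of imatinib, trametinib and YM115 were 0.63, 0.80 and 1.21 in dT. Those of Bio were -0.57, 1.04 and 0.17. For total counts the screens thus overlapped by drug, and a test with drugs as units was not run. The screens also differ in how the fragments were assigned and in depth, and the part of each in this difference was not tested.

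The gap varied between the drugs and between the runs of a drug. In dT, the ratio of first-listed to second-listed total counts was 2.39, 1.34 and 1.15 for imatinib in runs 1, 2 and 3. For trametinib it was 1.68, 1.89 and 1.68. For YM115 it was 2.18, 2.06 and 2.76. All 9 ratios were above 1, with the least spread for trametinib and the most for imatinib. In Bio the ratios were 1.04, 0.291 and 1.01 for imatinib, 2.75, 1.73 and 1.83 for trametinib, and 1.04, 1.13 and 1.21 for YM115. The Bio ratios stood clear of 1 for trametinib in each run, and lay close to 1 for YM115. The trametinib ratio of 2.75 rests on the Bio library that failed the filter.

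Trametinib had the widest mean gap in detected genes in both screens. Its first-listed libraries detected 1845 ± 55.4 more genes than the second-listed in dT and 1080 ± 147 more in Bio (SD, n = 3 pairs each). The gaps of imatinib were 1181 ± 409 and -238 ± 719 genes, and those of YM115 1676 ± 497 and 54.7 ± 143. At an equal depth within each screen the gaps of trametinib were 1217 ± 58.9 and 641 ± 37.9 genes, with the least spread of the 3 drugs in both screens. For imatinib the gap at equal depth was 788 ± 195 genes in dT and 9.0 ± 322 in Bio, and for YM115 it was 879 ± 367 and -21.0 ± 66.8 genes. The Bio gap at equal depth thus rested on trametinib, and without its pairs it was -6.0 genes. The Bio values of trametinib given here include run 1, whose second-listed library failed the filter. In runs 2 and 3 its Bio gaps were 1205 and 918 genes, and 685 and 622 genes at equal depth. These per-drug values were not tested, since 3 pairs cannot give an exact p below 0.25.

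The mitochondrial and ribosomal protein shares of the libraries did not differ between positions beyond the spread of the pairs. The mitochondrial share of counts was 4.66% ± 1.06 with the first-listed and 4.97% ± 0.711 with the second-listed drug in dT (SD, n = 9 each), a difference of -0.303 percentage points (exact permutation p = 0.398, adjusted p = 0.508). The share of the 80 ribosomal protein genes was 24.0% ± 2.48 and 24.9% ± 3.36, a difference of -0.969 points (exact permutation p = 0.457, adjusted p = 0.508). In Bio the differences over 8 pairs were 0.547 points for the mitochondrial share (exact permutation p = 0.133, adjusted p = 0.332) and -1.34 points for ribosomal proteins (exact permutation p = 0.406, adjusted p = 0.508). Neither measure passed in either screen. The pooled values hid opposite gaps of single drugs. The mitochondrial share was lower with first-listed imatinib in dT, by -1.26 ± 0.429 points, and higher with first-listed trametinib, by 0.881 ± 0.394 points in dT and 1.37 ± 0.225 in Bio (SD, n = 3 pairs each). The ribosomal protein share was lower with first-listed trametinib, by -4.81 ± 0.618 points in dT and -7.43 ± 2.45 in Bio. Both trametinib gaps had one sign in the 3 pairs of dT and in the 3 pairs of Bio. The Bio pairs include run 1, whose second-listed library failed the filter. For ribosomal proteins the gaps of the other drugs were 1.78 ± 3.77 (imatinib) and 0.125 ± 3.08 points (YM115) in dT and -2.11 ± 2.56 and 2.80 ± 1.25 in Bio. Without trametinib the dT difference in the mitochondrial share was -0.896 points (exact permutation p = 0.0313, adjusted p = 0.0781), which did not pass after adjustment. This p is the smallest that the remaining pairs allow. Leaving out trametinib removes the pairs with the opposite sign, so the value cannot serve as a separate test of position.

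**Figure D2:**
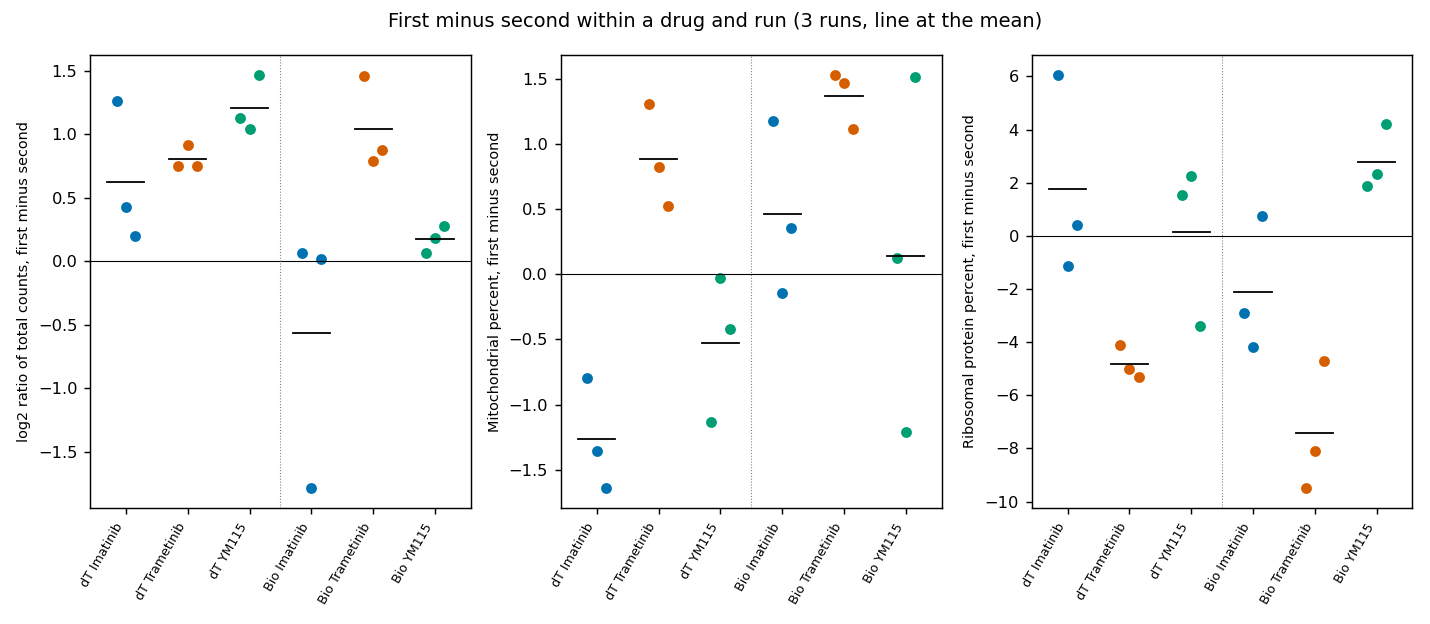
Gap between first-listed and second-listed library within each drug and run, for log2 total counts, mitochondrial percent and ribosomal protein percent, 1 point a run and a line at the mean of 3 runs, all 9 pairs of each screen shown. Trametinib points lie above 0 for the mitochondrial percent and below 0 for the ribosomal protein percent in both screens.

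More genes were counted regularly with the first-listed drug, in counts taken at full depth. Mean depth was 369223 and 203291 counts with the first-listed and second-listed drug in dT, and 208148 and 182519 in Bio. These numbers of genes therefore hold the difference in depth. Of the 24965 genes in the table, 13917 had a count in at least 1 of the 18 dT libraries. Of these, 6776 were seen in both positions, 5187 only with the first-listed drug and 1954 only with the second. The number counted in 50% or more of the 9 libraries of a position was 2849 for the first-listed and 1443 for the second-listed drug, of which 1322 were shared. In Bio 9963 genes had a count, 3971 in both positions, 3443 only in the first and 2549 only in the second, and 915 and 735 genes reached 50% of the libraries, with 566 shared. Shared genes made up 46.4% of the first-listed and 91.6% of the second-listed set in dT, and 61.9% and 77.0% in Bio.

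Genes counted in at least 50% of the 48 in-screen libraries of a screen were carried into the tests. These were 2187 genes in dT and 829 in Bio, of which 299 and 104 had a count in all 18 single-drug libraries. A dT gene of this set was counted on average in 7.25 of 9 first-listed and 5.49 of 9 second-listed libraries. More first-listed than second-listed libraries held a count for 1538 of the genes (70.3%), the reverse was true for 165 (7.54%), and 484 were tied. At equal depth these numbers were 1343 (61.4%), 343 (15.7%) and 501. In Bio 360 genes (43.4%) were counted in more first-listed libraries and 239 (28.8%) in more second-listed ones, with means of 6.48 and 6.11 libraries.

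**Figure D3:**
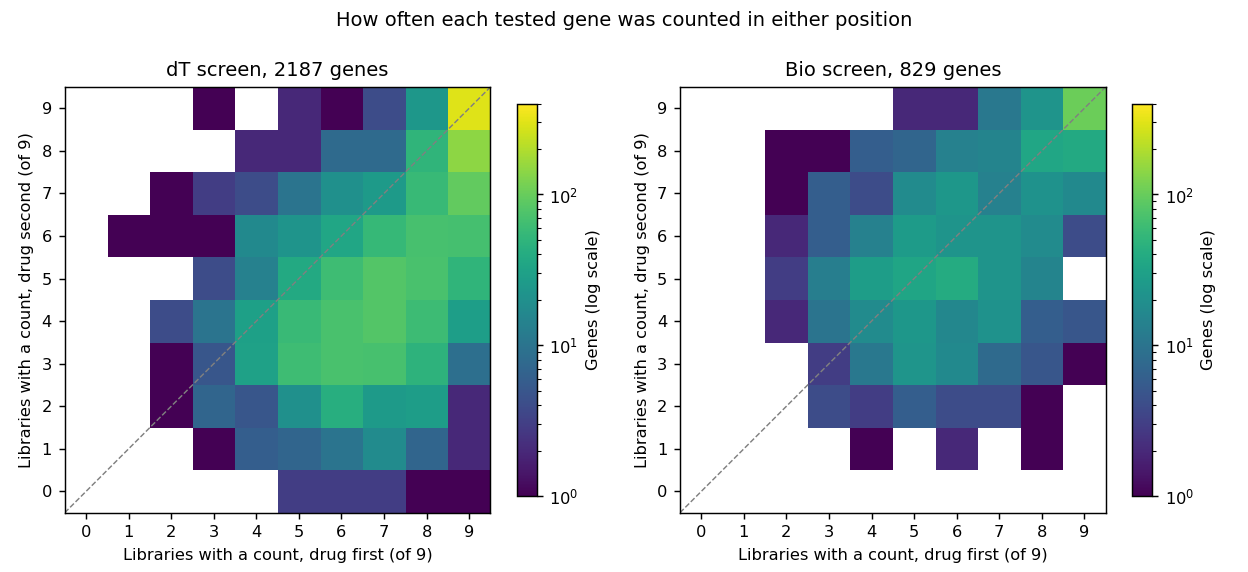
Tested genes by the number of first-listed (x axis) and second-listed (y axis) libraries, of 9 each, that held a count, with colour for the number of genes on a log scale and a dashed line where both numbers are equal, for dT (2187 genes) and Bio (829 genes). In dT most genes lie under the line, 1538 against 165 above it, and in Bio 360 lie under and 239 above it.

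Genes near all or nothing by position were few. Counted in at least 8 of 9 libraries of one position and at most 1 of 9 of the other were 17 dT genes with the first-listed drug (0.122% of 13917) and 2 with the second (0.0144%), ENSG00000233968 and LINC03069. In Bio these were 4 genes with the first-listed drug (0.0401% of 9963), PSMB2, INSIG1, RPS27P25 and ZFP36L1, and 1 with the second (0.01%), RRP15. RPS27P25 is a ribosomal protein pseudogene that may share reads with its parent gene. INSIG1 was the 1 gene found in the first-listed set of both screens. Genes in these counts were named after their values had been seen. The counts were also taken at full depth. Among the tested genes, 11 were split this way toward the first-listed drug in dT and 1 in Bio. At equal depth these numbers were 4 and 0, and 0 tested genes were split toward the second in either screen.

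Expression of each gene was then fitted with position, drug and run as terms. In dT, 5 of 2187 genes (0.229%) passed an adjusted p of 0.05 in the quasi-likelihood test of edgeR (Benjamini-Hochberg adjusted), and all 5 were higher with the first-listed drug. Leaving out any 1 run or any 1 drug gave 0 calls. At an unadjusted p under 0.05 there were 221 genes (10.1%), of which 202 (9.24%) were higher and 19 (0.869%) lower. The median log2 difference of all tested genes was 0.58, and 0.37 or 0.43 when scaling used DESeq2's size factors or total counts. It was 0.64 for the 1030 genes under 100 CPM (counts scaled to a common library total), 0.66 for the 1050 genes from 100 to 1000 CPM and 0.13 for the 107 genes at 1000 CPM or more. Among the 299 genes counted in every library it was 0.13 in the same fit, and 192 of them (64.2%) were above 0. Of all tested genes, 1538 (70.3%) were above 0 in dT and 424 (51.1%) in Bio, and the list counts below are to be read against these shares and medians. DESeq2 called 182 dT genes, 158 higher and 24 lower. In Bio 0 of 829 genes passed in edgeR (0.0%), with 47 (5.67%) at an unadjusted p under 0.05 and 62 called by DESeq2, and the median difference was near 0 in each class of abundance (0.00, 0.11 and 0.00).

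**Figure D4:**
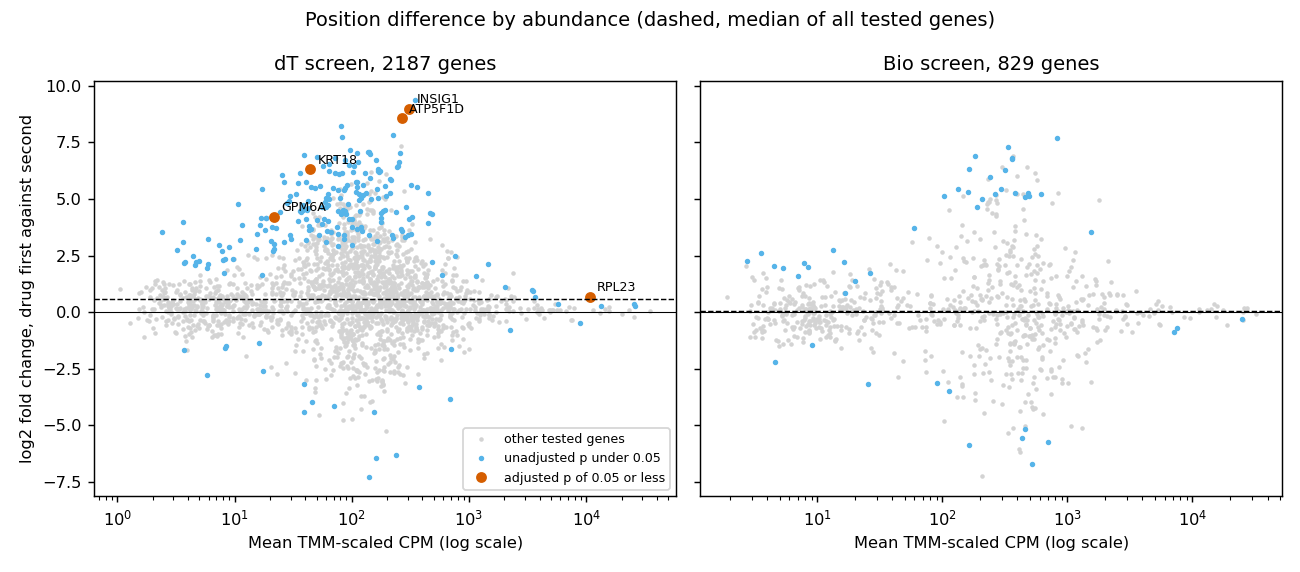
Log2 difference of first-listed against second-listed drug (y axis) for each tested gene by its mean TMM-scaled CPM on a log axis, for dT and Bio, with a dashed line at the median of all genes and colours for an unadjusted p under 0.05 and for an adjusted p of 0.05 or less. The 5 dT genes that passed are all above 0, the median line of dT lies at 0.58, and the median of genes of 1000 CPM or more is 0.13, with single genes of that class far from 0.

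Of the 5 genes, INSIG1 had the smallest p. It encodes a protein of the endoplasmic reticulum that holds back the SREBP factors of cholesterol synthesis (chromosome 7, 155297776 to 155310235 on GRCh38, protein coding). In dT the first-listed libraries held 346, 453 and 416 counts with imatinib, 23, 108 and 51 with trametinib and 137, 292 and 5 with YM115. The 9 second-listed libraries held 0 counts in 8 libraries and 1 count in DMSO_YM115 run 1. By CPM at full depth the positions did not overlap, which held for 3 of 2187 tested genes (0.137%). GPM6A and ANKRD9 were the others, and the latter was named after its values were seen. The lowest first-listed values of INSIG1 (12.4 CPM) and ANKRD9 (2.49 CPM) lay under the mean floor of 3 counts in the second position (15.6 CPM). INSIG1 was at least 39.6-fold higher with the first-listed drug, taking 3 counts per library as the floor, with an adjusted p of 0.00455 in edgeR. The solvent libraries DMSO_DMSO held 213, 83 and 166 counts, so INSIG1 was counted without any drug as well. In Bio it was too sparse to be tested. There 8 of 9 first-listed libraries held a count, up to 237, against 1 of 9 second-listed libraries, with 4 counts, and the DMSO_DMSO libraries held 0. Its dT call was kept in 9 of 15 alternatives.

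ATP5F1D, the delta subunit of mitochondrial ATP synthase (chromosome 19, 1241746 to 1244826), was at least 31.8-fold higher with the first-listed drug in dT (adjusted p = 0.00858 in edgeR). Its first-listed libraries held 153, 101 and 59 counts with imatinib, 347, 402 and 491 with trametinib and 0, 60 and 1 with YM115. The second-listed libraries held 0 counts in 7 and 1 count in 2 libraries. Both drugs other than YM115 stood apart in all runs, whereas YM115 overlapped with the second position. In Bio, counts of 233, 0 and 195 with first-listed imatinib and 490, 59 and 17 with first-listed trametinib stood against 0 to 2 counts in the second position, and first-listed YM115 held 0.

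KRT18, an intermediate filament keratin (chromosome 12, 52948871 to 52952901), was at least 5.52-fold higher in dT (adjusted p = 0.021 in edgeR). KRT18 had 0 counts at the lowest, 30 at the median and 89 at the highest in the first position, with a count in 7 of 9 libraries, and 1 count in 1 of 9 libraries in the second. GPM6A, a membrane glycoprotein best known from neurons (chromosome 4, 175632934 to 176002664), was at least 2.58-fold higher (adjusted p = 0.0382 in edgeR). Its first-listed dT libraries held 6 to 33 counts and its second-listed libraries 0 or 1 count, with 0, 0 and 1 in DMSO_DMSO. In Bio GPM6A had a count in 9 of 9 first-listed libraries (1 to 16 counts) and in 4 of 9 second-listed ones (0 to 22 counts), with a log2 difference of 1.42 (SE 1.10, adjusted p = 0.948 in edgeR). KRT18 kept its call in 3 of 15 and GPM6A in 2 of 15 alternatives.

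RPL23, a protein of the large ribosomal subunit (chromosome 17, 38847865 to 38853843), was the 1 abundant gene among the 5. Its TMM-scaled level in dT was 10782 CPM at the lowest, 12523 at the median and 16273 at the highest with the first-listed drug, and 5524, 8290 and 11107 CPM with the second. The 9 values of each position overlapped in a narrow band, set by DMSO_Trametinib run 3. The means were 12849 ± 1794 and 8493 ± 1764 CPM (SD, n = 9 each), a log2 difference of 0.68 (SE 0.13, adjusted p = 0.0382 in edgeR). DMSO_DMSO had 9158, 9150 and 7812 CPM. In Bio the difference of RPL23 was 0.15 (SE 0.31, adjusted p = 0.988 in edgeR). The difference in dT stood against a median of 0.58 for all genes and of 0.13 for genes of 1000 CPM or more, and it passed in 2 of 16 alternatives, with values from 0.37 to 0.87. Pseudogenes of ribosomal proteins can share reads with their parents, which leaves the level of RPL23 uncertain to that extent.

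**Figure D5:**
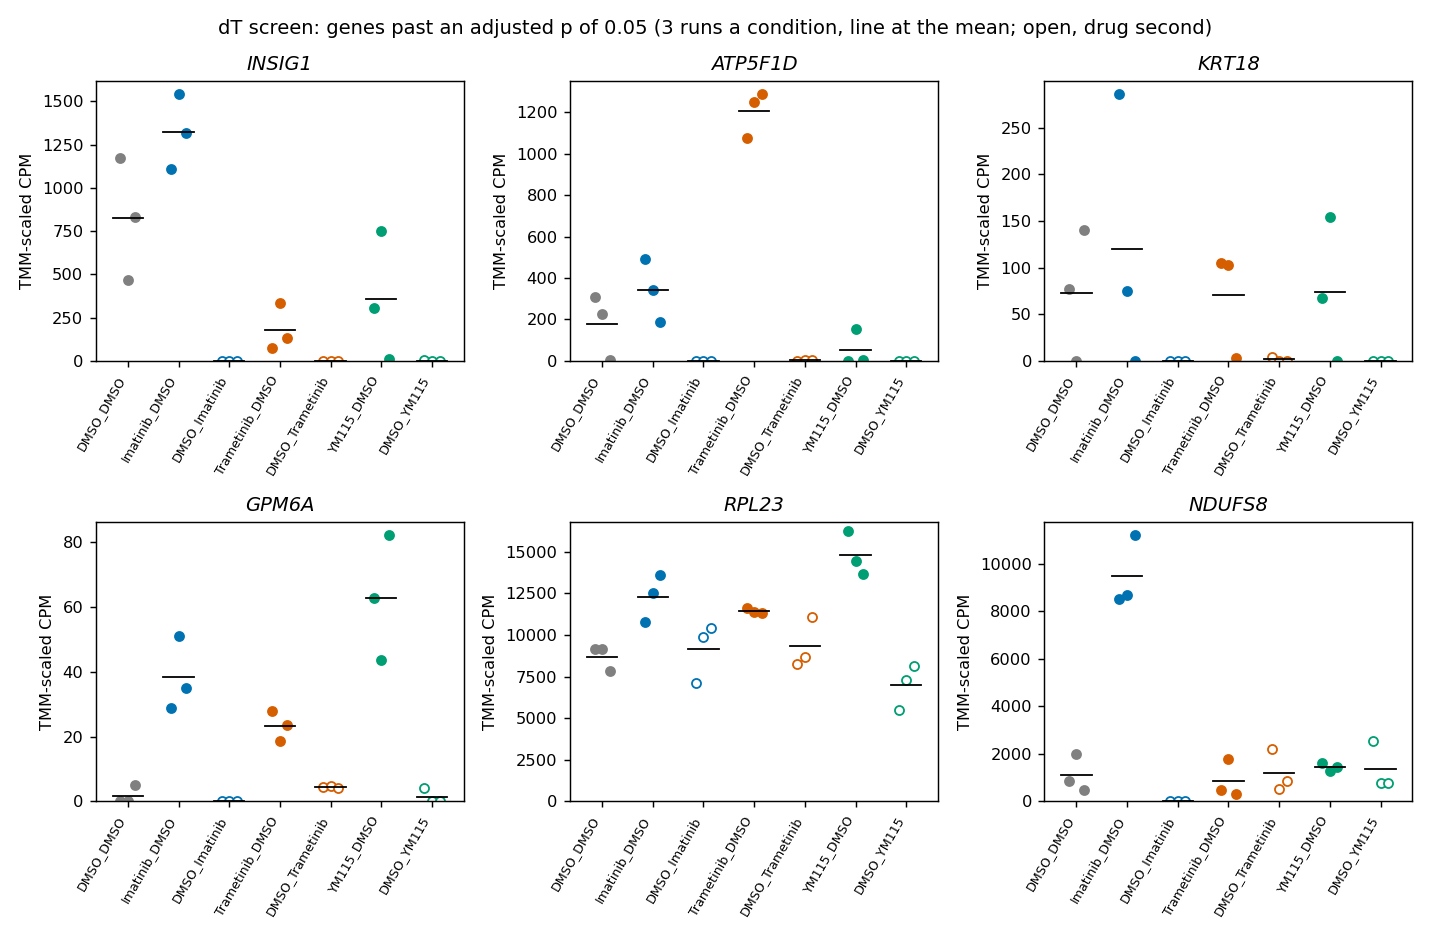
TMM-scaled CPM in dT of the 5 genes past an adjusted p of 0.05 for position, and of NDUFS8, which passed for imatinib, in the 3 runs of each condition, with a line at the mean, filled points for drug first or solvent only, and open points for drug second. INSIG1, ATP5F1D, KRT18 and GPM6A lie at or near 0 with the drug second, RPL23 runs from 5524 to 16273 CPM, and NDUFS8 splits by position with imatinib.

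Genes lower with the first-listed drug did not pass in dT. The 3 with the smallest p were PGP (phosphoglycolate phosphatase, chromosome 16, 2211997 to 2214807), RRP15 (a factor of ribosome assembly, chromosome 1, 218285287 to 218337983) and the processed pseudogene ENSG00000225840. Their log2 differences in edgeR were -6.31 (SE 1.54, adjusted p = 0.0965), -4.42 (SE 1.19, adjusted p = 0.104) and -2.76 (SE 0.78, adjusted p = 0.127). PGP had 0 counts at the lowest, 0 at the median and 73 at the highest in the first position and 0, 148 and 226 in the second. RRP15 showed the same direction in both screens. In dT it had a count in 3 of 9 first-listed libraries (0 to 14 counts) and in 9 of 9 second-listed libraries (2 to 79 counts). In Bio it had 0 counts in all 9 first-listed and 1 to 13 counts in all 9 second-listed libraries, with 3, 5 and 3 counts in DMSO_DMSO, and it was too sparse there to be tested. A count of 0 in a library allows up to 3 counts by counting error alone.

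In Bio the 3 genes with the smallest p in the higher direction were RTL8C, a gene derived from a retrotransposon (chromosome X, 135032366 to 135033546), CXXC5, a zinc finger protein (chromosome 5, 139647299 to 139683882), and SENP7, a SUMO protease (chromosome 3, 101324205 to 101513241). RTL8C held 1 to 159 counts in the 9 first-listed libraries and 0 to 2 in the second-listed ones, with a log2 difference of 6.88 (SE 1.61, adjusted p = 0.42 in edgeR). CXXC5 differed by 6.31 (SE 1.69, adjusted p = 0.475) and SENP7 by 2.74 (SE 0.76, adjusted p = 0.475). In dT the values of these genes were 2.19 (SE 1.61), 0.52 (SE 1.19) and 0.93 (SE 0.64). In the lower direction stood the pseudogene ENSG00000266944 (-3.18, SE 0.91), TRIB3, a pseudokinase of the stress response (-5.75, SE 2.06), and RPS15AP7, a ribosomal protein pseudogene (-2.22, SE 0.82), with adjusted p-values of 0.475, 0.693 and 0.693 in edgeR. None of the 6 passed.

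The positions of single drugs were compared in a fit with 1 mean per condition. For imatinib in dT, 1 of 2187 genes passed (0.0457%), with 229 (10.5%) at an unadjusted p under 0.05 and 158 called by DESeq2. This was NDUFS8, an iron-sulfur subunit of respiratory complex I (chromosome 11, 68030617 to 68036644). It held 2656, 2556 and 3539 counts in the 3 Imatinib_DMSO libraries and 0, 0 and 1 count in the 3 DMSO_Imatinib libraries, and was at least 596-fold higher with imatinib in first position (adjusted p = 6.45e-05 in edgeR). DMSO_DMSO held 157, 352 and 97 counts. With trametinib NDUFS8 held 152, 569 and 123 counts in the first and 481, 114 and 209 in the second position, and with YM115 731, 493 and 577 against 601, 160 and 129. The split was thus not seen in the counts of the other drugs, and NDUFS8 was the 1 gene (0.0457%) whose difference between positions depended on the drug (joint test, adjusted p = 0.000563 in edgeR). In that test 172 genes (7.86%) had an unadjusted p under 0.05 and DESeq2 called 7.

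In Bio the imatinib libraries gave the same picture for NDUFS8. Imatinib_DMSO held 868, 688 and 752 counts and DMSO_Imatinib 5, 3 and 2 counts, a log2 difference of 8.51 (SE 3.02, unadjusted p = 0.0126, adjusted p = 0.476 in edgeR). DMSO_DMSO held 587, 2 and 0 counts, so that solvent libraries alone spanned the range. The dT call for NDUFS8 with imatinib was kept in 11 of 11 alternatives, and the dependence on drug in 10 of 11, being lost without run 1 (adjusted p = 0.0522 in edgeR). Trametinib gave 0 dT genes in edgeR (0.0%), with 186 (8.5%) at an unadjusted p under 0.05 and 98 called by DESeq2. YM115 gave 1 gene (0.0457%), with 173 (7.91%) at an unadjusted p under 0.05 and 63 called by DESeq2. This was RPL23, with a log2 difference of 1.16 (SE 0.18, adjusted p = 0.0173 in edgeR), from 5524, 7283 and 8130 CPM in the second to 16273, 14425 and 13664 CPM in the first position. The YM115 call for RPL23 was kept in 4 of 12 alternatives and lost without any 1 run. Its differences were 0.57 for imatinib and 0.30 for trametinib, and the test of their dependence on drug did not pass (adjusted p = 0.577 in edgeR). In Bio 0 genes passed for each drug in edgeR, with 82 (9.89%), 55 (6.63%) and 50 (6.03%) at an unadjusted p under 0.05 and 76, 72 and 36 called by DESeq2. The test of drug by position in Bio gave 0 genes in edgeR (0.0%), with 77 (9.29%) at an unadjusted p under 0.05 and 0 called by DESeq2.

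Ribosomal proteins, which take about 24% of the counts, had medians below that of all tested genes in dT (0.58). Genes of 1000 CPM or more had a median of 0.13 there, which lay below the large-subunit and above the small-subunit median. In dT 41 large-subunit genes were tested, 33 were above 0 with a median log2 difference of 0.40, and 1, RPL23, passed. Of 30 small-subunit genes 20 were above 0 with a median of 0.10 and 0 passed. RPL31 (0.26, SE 0.10) and RPS15 (0.25, SE 0.10) had unadjusted p-values of 0.0142 and 0.0181 and did not pass in edgeR. RPS13, counted in 4 first-listed and 1 second-listed library, differed by 3.19 (SE 1.31). In Bio the medians were 0.00 over 32 and 0.04 over 27 genes, with 0 called. RPL13 (-0.32, SE 0.14) and RPL34 (-0.57, SE 0.28) were below 0 there, and RPS4X was above it (5.28, SE 2.00). The lower ribosomal share with first-listed trametinib stood beside a median gene difference that lay under that of all genes. The median was 0.04 over 71 genes in dT and 0.16 over 59 in Bio, beside 0.51 and 0.66 for all genes tested, and 0 of these genes passed in edgeR. This was not particular to trametinib in dT. Imatinib (0.22 beside 0.64) and YM115 (0.36 beside 0.59) had it there without a lower mean ribosomal share. The Bio medians were -0.33 beside -0.34 for imatinib and 0.34 beside 0.06 for YM115.

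Elongation factors and other mRNAs with a terminal oligopyrimidine tract had a median of 0.28 over 12 dT genes and of -0.34 over 7 Bio genes. RACK1, a ribosome-bound scaffold, differed by 0.24 (SE 0.13) and 0.14 (SE 0.21), and PABPC1, the poly(A)-binding protein, by 1.80 (SE 1.38) and -1.99 (SE 2.52). Mitochondrially encoded respiratory subunits had a median of 0.08 in dT, with 6 of 11 above 0, and of 0.42 in Bio, with 9 of 9 above 0. MT-CO2 differed by 0.60 (SE 0.49) and MT-ND4 by 0.64 (SE 0.43) in dT, and MT-CO1 by 0.36 (SE 0.24) in Bio. With trametinib alone, 9 of 11 of these genes were above 0 in dT (median 0.63) and 9 of 9 in Bio (median 1.17), beside medians of all genes of 0.51 and 0.66 and shares above 0 of 61.1% and 63.7%. The 2 mitochondrial rRNAs were below 0 in both screens (medians -0.72 and -1.70). None of these genes passed in edgeR.

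Nuclear-encoded respiratory subunits had a median of 0.32 over 20 dT genes and of 0.72 over 15 Bio genes, with 0 called in the position fit. UQCRH, of complex III, differed by -3.30 (SE 1.41), and ATP5F1A, of ATP synthase, by 3.69 (unadjusted p = 0.142) in dT. COX5B, of complex IV, differed by -0.87 (SE 0.39), and NDUFB11, of complex I, by 5.18 (SE 2.94) in Bio. ATP5F1D and NDUFS8, described above, were not in this list. Glycolytic enzymes had medians of 0.73 over 10 genes (dT) and 0.13 over 7 (Bio). GAPDH differed by 1.74 (SE 0.95) and TPI1 by 0.75 (SE 0.36) in dT, and ENO1 by -0.71 (SE 0.33) and ALDOA by 3.53 (SE 2.34) in Bio.

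Chaperones had the highest list median in dT among lists with more than 5 tested genes, 1.12 over 9 genes with 7 above 0, and a median of -0.50 over 9 genes in Bio. HSP90AB1 differed by 1.12 (SE 0.47) and HSP90AA1 by 1.44 (SE 0.80) in dT, and the inducible HSPA1A by -3.15 (SE 1.20) and DNAJB1 by -4.39 (SE 2.52) in Bio. High mobility group and histone genes, which package chromatin, were above 0 for 6 of 6 dT genes (median 0.81) and 4 of 5 Bio genes (median 2.14). HMGB2 differed by 1.08 (SE 0.66) in dT and by -5.11 (SE 2.54) in Bio, and HMGN2 by 2.22 (SE 1.04) in Bio. HMGA1, counted in all libraries, differed by 0.20 (SE 0.14) in dT under TMM and by -0.04 under DESeq2's size factors. Cytoskeletal genes had medians of -0.56 over 8 and -0.09 over 7 genes, with TUBA1C at -4.17 (SE 1.41) and ACTB at -1.63 (SE 0.65) in dT. 0 genes of these lists passed in edgeR in either screen.

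Genes of the erythroid state of K562 did not pass the test. Globins had medians of -0.24 over 4 dT genes and 0.17 over 3 Bio genes, and their summed share in dT was 3.41% ± 1.13 with the first-listed and 3.83% ± 1.62 with the second-listed drug (SD, n = 9 each). HBZ differed by -0.51 (SE 0.64) and HBE1 by -0.73 (SE 0.96) in dT. Iron and heme genes had medians of -0.04 and -1.18 over 4 genes each, with FTL, the ferritin light chain, at -0.46 (SE 0.22) and UROD, of heme synthesis, at 0.95 (SE 0.81) in dT. Metallothioneins, which bind zinc and copper, had medians of 0.15 over 6 genes and -0.49 over 7. MT1E differed by 2.68 (SE 1.81) and MT1H by 2.47 (SE 1.70) in dT. 0 of these passed in edgeR.

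Of the 5 drug targets, ABL1 and MAP2K2 were tested in dT and MAP2K2 alone in Bio. ABL1 had a count in 8 of 9 first-listed dT libraries, with 20 counts at the median and 71 at the highest, and in 3 of 9 second-listed libraries, with 24 counts at the highest. Its log2 difference was 4.07 (SE 1.32, unadjusted p = 0.00633, adjusted p = 0.207 in edgeR). BCR was counted in 7 and 2 of 9 dT libraries and in 4 and 4 of 9 Bio libraries, and BIRC5, which encodes survivin, in 6 and 2 and in 1 and 1. MAP2K1 was counted in 1 and 2 dT libraries and in 0 of 18 Bio libraries. MAP2K2, a MEK kinase, was counted in 9 and 8 dT libraries and in 8 and 6 Bio libraries. Its counts in dT were 14 at the lowest, 228 at the median and 446 at the highest in the first position and 0, 60 and 218 in the second. MAP2K2 did not pass in either screen, with unadjusted p-values of 0.643 and 0.619 in edgeR. BCR, BIRC5 and MAP2K1 were too sparse to be tested, so a difference between positions was not detectable in them at this depth.

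Across the 822 genes tested in both screens, 461 (56.1%) had the same sign of the position difference in dT and Bio, and the differences correlated with r = 0.10 (Spearman rho = 0.12). Genes are not independent replicates, so this is a description. A test of position by screen gave 0 of 822 genes in edgeR (0.0%), with 54 (6.57%) at an unadjusted p under 0.05 and 43 called by DESeq2. The differences between positions were also set side by side for the 3 drugs over genes counted in every library. Over 299 dT genes r was 0.03 for imatinib and trametinib, 0.16 for imatinib and YM115 and 0.13 for trametinib and YM115. All 3 drugs had one sign in 86 genes (28.8%). Over 120 Bio genes r was 0.01, 0.25 and -0.23, and 32 genes (26.7%) had one sign.

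Differences between drugs were compared in the same way, once among first-listed and once among second-listed libraries, which share no library. In dT the differences between imatinib and trametinib in the 2 positions gave r = -0.14 over 299 genes, with 43.5% of one sign. Those between imatinib and YM115 gave r = -0.03 (54.5%) and those between trametinib and YM115 r = 0.06 (50.2%). In Bio the values over 120 genes were 0.08, 0.39 and -0.11. Libraries of the same condition in different runs correlated with a mean r of 0.820 over the same 299 genes in dT. Also between different runs, it was 0.788 for the same drug in the other position and 0.803 for other drugs in the same position. For other drugs in the other position it was 0.790. Over the 120 Bio genes these means were 0.846, 0.837, 0.834 and 0.836. Of the variance of log2 CPM of these 299 dT genes, the median share was 13.6% for run, 8.80% for drug, 5.10% for position, 9.50% for drug by position and 47.8% left over. The Bio shares over 120 genes were 13.3%, 9.91%, 3.48%, 8.84% and 46.0%. Genes without a count in some library are left out of these sets, among them INSIG1, ATP5F1D, KRT18, GPM6A and NDUFS8 in dT. Position had 1 degree of freedom and run, drug and drug by position had 2 each, so that per degree of freedom the position share of dT, 5.10%, stood beside 4.78% for the variance left over.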

How the data were processed

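The authors assigned reads to drug pairs by the ligated barcodes and deposited the unnormalised counts of reads for each gene, as whole numbers. GRCh38 and STAR 2.4.2a are named in the submitters' processing notes. No collapse by molecular identifiers was described, so limits cover counting error only, and use of strand is not given in the sources used here. Gene symbols (24539 of 24965) and GRCh38 coordinates (24646, GENCODE 29) were matched by identifier. Of the rows, 0 name no gene.

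Groups came from the labels. Members and gene lists were chosen with earlier results of these data known. edgeR 4.0.16 in R 4.3.3 (TMM, glmQLFit, glmQLFTest, Benjamini-Hochberg, threshold 0.05) was fitted per screen on genes counted in 50% or more of the 48 in-screen libraries, with drug and run beside position, on libraries with at least 1000 genes and at most 15% mitochondrial counts (29 genes). Library measures were tested by exact permutation within pairs (numpy 2.4.6). Run was a block because the series' design text counts a raw file for each replicate of a screen, and the study treats replicates as a batch. For the comparison of the screens, detected genes were thinned to 1 depth, a choice made after the data were seen. In dT, residuals correlated with a mean r of 0.0247 within runs and -0.0124 between them, in Bio with 0.0191 and -0.0095, and 2.22% and 7.50% of same-run pairs exceeded 0.1. Thinning used 1 fixed seed. The scripts were tested on simulated counts without drug or run differences. In dT, log2 changes of 2 and 4 outside the 200 most abundant genes were recovered in 2% and 32% of cases. Among those 200 genes, changes of 1 and 2 were recovered in 22% and 52%. The Bio values were 6%, 38%, 4% and 20%. Of 59 dT and 35 Bio calls, 5 and 1 were false. A gene that did not pass may therefore still differ.

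Named genes were up to 10 in each direction past the threshold by smallest p, or the 3 with the smallest p where fewer than 3 passed, up to 3 per direction and drug, up to 5 for the interactions, 2 to 4 examples a list, and the drug targets. Where one position had at most 3 counts in every library, the fold was taken against 3 counts per library. Alternatives were the block, the scaling, DESeq2 1.42.0, the filters, equal depth, robust fitting, and leaving out runs or drugs. Barcode sequences were not used here.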

Additional observations from a re-analysis of the deposited data

Results flagged for a closer look

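Single libraries stood apart in 2 of 30 groups of 4 to 10 libraries tested with Dixon's criterion, which chance gives in about 1 in 20. In the second-listed dT position, INSIG1 had 4.21 CPM in DMSO_YM115 run 1 and 0 in the other 8 libraries, and KRT18 had 4.57 CPM in DMSO_Trametinib run 1 and 0 in the other 8. Each of these values is 1 count.

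The gap between positions differed between the screens by 0.82 log2 units of total counts, by 1371 detected genes and by 742 detected genes with both screens thinned to 1 depth, each by an exact permutation test of the difference (adjusted p = 0.00967, 0.00144 and 0.00144). These values are over the pairs that passed the filter. With the Bio pair of the filtered library included, the gap in counts differed by 0.66 (exact permutation, adjusted p = 0.0705), which did not pass. These tests took pairs as units, and the 3 pairs of a drug shared their barcode pairs. The position difference of NDUFS8 in dT differed between the drugs (joint test in edgeR, adjusted p = 0.000563).

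In 3 instances every pair of one drug moved one way and every pair of another drug the opposite way, and the difference was not tested. In dT the mitochondrial gap of imatinib minus that of trametinib was -2.14 percentage points, and that of trametinib minus that of YM115 was 1.41 points. In Bio the ribosomal protein gap of trametinib minus that of YM115 was -10.2 points. It includes trametinib run 1, whose second-listed library failed the filter.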

How the results depend on the processing

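The dT position fit called 5 genes. It called 3 with no replicate block, 2 with a replicate block by drug and run, 3 with DESeq2's size factors, 3 with total counts as scaling, 2 with filterByExpr, 3 with no filter on low counts, 1 among genes counted in every library, 2 at equal depth and 2 with robust fitting. Leaving out 1 run gave 0 to 0 genes (without run 1, 2 or 3), and leaving out imatinib, trametinib or YM115 gave 0, 0 and 0. Leaving out libraries also lowers their number, and the part of each library was not tested. DESeq2 called 182 genes for position in dT and 62 in Bio, 158, 98 and 63 for imatinib, trametinib and YM115 in dT, 76, 72 and 36 in Bio, 7 for drug by position in dT and 43 for position by screen; the cause was not tested. The single call of YM115 in dT was 0 with no replicate block, 0 with DESeq2's size factors, 0 with total counts, 0 with no filter, 2 among genes counted in every library, and 0 to 0 without 1 run. Without a filter imatinib in dT gave 2 genes and position by screen 1. Drug by position in dT gave 0 among genes counted in every library, which leaves out NDUFS8, and 0 to 1 without 1 run (0 without run 1).

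The dT differences in counts and detected genes kept their direction in each alternative, but not their call with fewer pairs. Leaving out 1 run or 1 drug leaves 6 pairs, whose smallest exact permutation p is 0.0313, and the adjusted p was then 0.0781 to 0.104. Without 1 run the differences were 0.80 to 0.92 for log2 total counts, 1512 to 1638 for detected genes and 938 to 991 for detected genes at equal depth. Without imatinib, trametinib and YM115 they were 1.01, 0.92 and 0.72, then 1760, 1429 and 1513, and 1048, 834 and 1002. The mitochondrial difference in dT was 0.176 points without imatinib and -0.896 without trametinib, and the ribosomal protein difference was 0.952 without trametinib. In Bio, without trametinib, log2 total counts differed by -0.20, detected genes by -91.7, detected genes at equal depth by -6.0 and the ribosomal protein share by 0.342. Log2 total counts in Bio differed by -0.0069 without YM115 and by -0.14 to 0.26 without 1 run. The sign also turned for MAP2K2 (-0.078 to 1.26 in dT without 1 run, and 1.93 with a replicate block by drug and run, -2.54 to 0.42 without 1 run and 0.29 without imatinib in Bio), MT-CO2 (-0.13 in dT without trametinib), HBE1 (0.13 in dT without YM115), ALDOA (-0.27 to 4.65 in Bio without 1 run) and HMGA1 (-0.036 in dT under DESeq2's size factors and -0.036 under DESeq2). Of 894 values of named genes, 808 kept direction and call, 60 lost the call, 17 gained it and 9 turned. Of the 2187 dT genes tested, 299 had a count in all 18 libraries, and a count of 0 allows up to 3 counts.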
